A study of Homo sapiens with 6 samples.

Results

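Caveolae are small flask-shaped pits of the plasma membrane, and 7 genes that build or shape them are described here, namely the caveolins CAV1 and CAV2, the cavins CAVIN1 and CAVIN3, the neck ATPase EHD2 and the membrane-bending proteins PACSIN2 and PACSIN3. They were taken as a set named for its function and matched by symbol to the Ensembl identifiers of the expression table. All 7 were found among the 16922 genes of the table, and all 7 were among the 16901 genes with a mean normalized count of at least 10 that were tested. RNA came from the human clear cell renal cell carcinoma line 786-O and from a derivative of it labelled 786-O FOXD1null, whose FOXD1 gene, encoding a forkhead transcription factor, is named as lost. Each line gave 3 libraries, from plates grown to 70% confluency with no treatment named. Both lines share the 786-O background, and the number of clones behind the derivative was not given in the sources used here.

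A caveola is coated by caveolins, which insert into the inner leaflet of a cholesterol-rich membrane, and by cavins, which bind to them from the cytosol. Caveolin-1 and cavin-1 are needed to form the pits in most cells, EHD2 holds them at the surface by a ring around the neck, and F-BAR proteins of the PACSIN family help to curve the membrane. In endothelium, fat and muscle caveolae flatten under stretch and so spare the membrane, and they also take part in lipid uptake and signalling.

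Total reads in genes ran between 34361770 and 37424528 in the libraries labelled FOXD1null and between 30982463 and 37843830 in 786-O. FOXD1 RNA went against a null label, with 1277, 1048 and 901 normalized counts in the libraries labelled FOXD1null, against 432, 498 and 480 in 786-O, a log2 fold change of 1.18 (SE 0.13, limma adjusted p = 3.9e-04). A gene's RNA can persist where its coding sequence is disrupted, but whether this applies here, and why FOXD1 RNA was higher, was not tested. The place of the alteration was not given in the sources used here, which is why samples go by their labels. FOXD1null replicate 1 stood apart from replicates 2 and 3, with a chi-square of 56.1 and 61.2 per gene, against 3.02 between replicates 2 and 3 and 2.60 to 5.88 among 786-O libraries, and values without it are given where they alter a result. Of 9 markers of a renal carcinoma line 8 had values, including the kidney factors PAX8 and PAX2 and the intermediate filament gene VIM. CA9 was absent from the genes given, and NDUFA4L2 was low, at 18.4 to 48.0 normalized counts. In the libraries labelled FOXD1null PAX8 (log2 fold change 0.26, limma adjusted p = 0.0082) and VIM (0.47, adjusted p = 0.0019) were higher. PAX2 was lower (-0.35, adjusted p = 0.011), and the rest had an adjusted p above 0.05. Among the rest, EPAS1 had 4611, 8676 and 8340 normalized counts in the libraries labelled FOXD1null, against 4561, 4498 and 4432 in 786-O. Its groups did not overlap, with a log2 fold change of 0.63 (limma adjusted p = 0.054). Without FOXD1null replicate 1, 3 of the 8 markers rose and 2 fell, where 55.0% of all genes passed. Among markers of other cells, 0 of 6 of endothelium and 0 of 5 of adipocytes were among the genes given. The 4 fibroblast markers of 6 with values summed to 284 to 437 normalized counts in the libraries labelled FOXD1null, against 750 to 898 in 786-O. PDGFRB, LUM and COL1A1 were lower, and the part of fibroblast markers in the results was not tested. Muscle markers, 3 of 6 with values, summed to 32.3 to 50.5 in the libraries labelled FOXD1null and 39.1 to 162 in 786-O. The upper end came from 786-O replicate 2, where DES had 79 reads and CKM 61. In 786-O replicates 1 and 3 DES had 2 and 5 reads, and CKM 5 and 6. MYH11 had 28, 39 and 36 reads in 786-O replicates 1, 2 and 3. The fibroblast marker COL3A1 had 62 reads in 786-O replicate 2, against 0 and 6 in replicates 1 and 3. Why this library differed in DES, CKM and COL3A1 was not tested. The leukocyte marker CD68, 1 of 5, was at 24.8 to 29.3 in the libraries labelled FOXD1null and 21.2 to 31.7 in 786-O.

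Of the 7 caveola genes, 4 rose in the libraries labelled FOXD1null (CAV1, CAV2, CAVIN3 and EHD2), 1 fell (PACSIN3) and 2 did not pass the test (CAVIN1 and PACSIN2). Over all genes tested, 33.4% passed in either direction, 16.3% higher and 17.1% lower (12.1% and 22.9% where libraries were scaled to equal totals). At equal totals 3 of the 7 genes rose, 1 fell and 3 did not pass. Their median log2 fold change was then 0.16, against -0.10 over all genes. Without FOXD1null replicate 1 all 7 passed, 5 higher and 2 lower, where 55.0% of all genes did. The 7 genes had a median log2 fold change of 0.25, against -0.01 over all genes tested. The size of the log2 fold change exceeded that of 93.8% of all genes tested for PACSIN3, 75.3% for EHD2, 68.3% for CAVIN3, 61.8% for CAV2, 48.6% for CAV1, 29.0% for PACSIN2 and 3.42% for CAVIN1. Values of the groups did not overlap for 6 of the 7 genes, CAVIN1 being the exception, and this was so for 49.0% of all genes tested. Fold changes are differences of mean log2(normalized count + 1), tested with limma and adjusted by the Benjamini-Hochberg method over all genes, and an adjusted p of at most 0.05 passed. For a single gene, an exact two-sided permutation test of 3 libraries against 3 cannot give a p below 0.1, the value it gave for those 6 genes. Each p-value reflects the spread among these 6 libraries alone, and nothing says that they came from separate cultures, so that spread may be technical. In RNA of whole plates, a change in the share of cells that express a gene and a change in RNA per cell cannot be told apart.

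**Figure D1:**
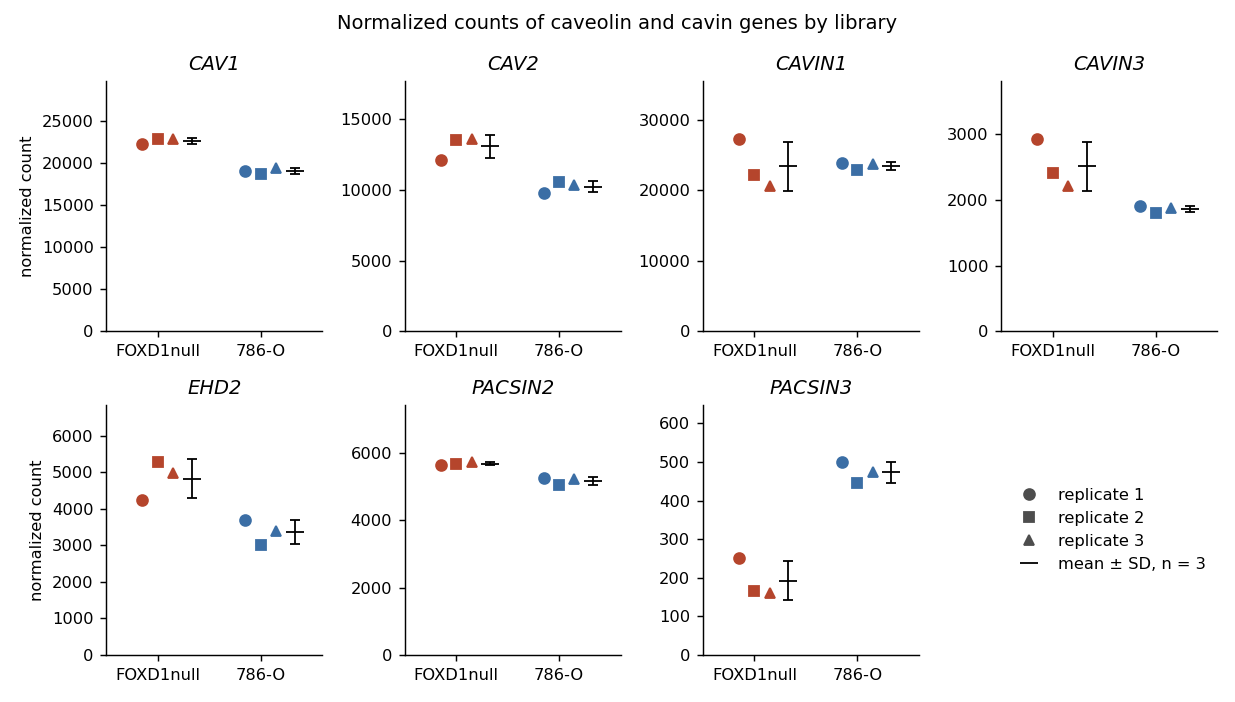
Normalized counts of the 7 caveola genes in each library (vertical axes, 1 panel a gene, each from 0), with the 3 libraries labelled FOXD1null on the left and the 3 of 786-O on the right of each panel. Points are libraries and bars are group means ± SD. The groups do not overlap for any gene but CAVIN1, where FOXD1null replicate 1 is above and replicates 2 and 3 are below all 786-O libraries.

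**Figure D2:**
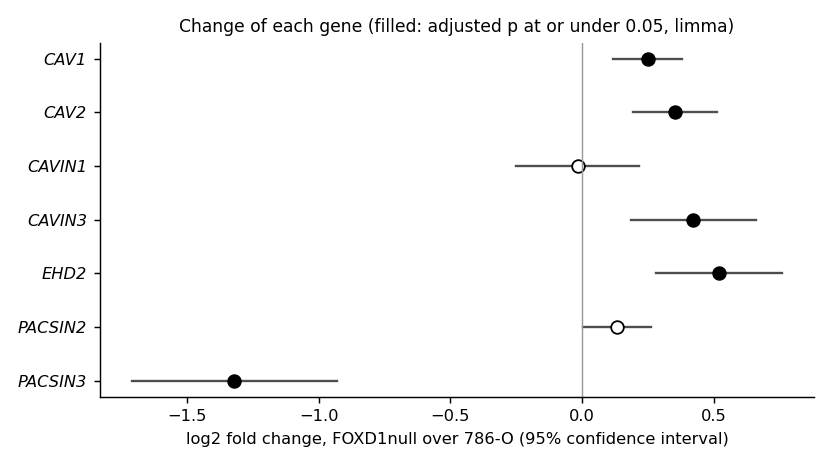
Log2 fold change (libraries labelled FOXD1null over 786-O, horizontal axis) for the 7 caveola genes, with the 95% interval from limma and filled points for an adjusted p of at most 0.05. EHD2 lies highest at 0.52 and PACSIN3 lowest at -1.32.

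The caveolins, the scaffold of the coat, were both higher. CAV1 (ENSG00000105974, chr7:116524994-116561179, plus strand, hg38) encodes caveolin-1, the protein that gives the pits their shape. It had 22219, 22819 and 22842 normalized counts in the libraries labelled FOXD1null, against 19055, 18658 and 19412 in 786-O. Every library labelled FOXD1null was above every 786-O library, and the spread was narrow in both groups (22626 ± 353 in the libraries labelled FOXD1null and 19042 ± 377 in 786-O, SD, n = 3 each). The log2 fold change was 0.25 (SE 0.06, 95% interval 0.12 to 0.38, limma adjusted p = 0.011), or 1.19-fold. This call was lost without 786-O replicate 1 (0.25 on the log2 scale, adjusted p = 0.055) or replicate 2 (0.23, adjusted p = 0.058), and on libraries scaled to equal totals (0.16, adjusted p = 0.051).

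CAV2 (ENSG00000105971, chr7:116287380-116508541, plus strand) encodes caveolin-2, which joins caveolin-1 in mixed oligomers. It had 12130, 13504 and 13619 normalized counts in the libraries labelled FOXD1null, against 9807, 10555 and 10319 in 786-O. The groups did not overlap, and FOXD1null replicate 1 was the lowest of its group. The means were 13084 ± 829 in the libraries labelled FOXD1null and 10227 ± 382 in 786-O (SD, n = 3 each), a log2 fold change of 0.35 (SE 0.07, 95% interval 0.20 to 0.51, limma adjusted p = 0.0056), or 1.28-fold. CAV2 passed under all 15 alternatives run, at log2 fold changes of 0.26 to 0.41. CAV1 and CAV2 lie side by side on chromosome 7, with starts 238 kb apart in the annotation, so they are not independent positions in the genome.

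The sequence before the start of each caveolin gene is given for its GC boxes, sites of the kind that the factor Sp1 is known to bind. RefSeq promoters (GRCh38.p14) were matched for 4 of the 7 genes (CAV1, CAV2, EHD2 and PACSIN2), and CAVIN1, CAVIN3 and PACSIN3 had no entry. The stretches are chr7:116524759-116524993 for CAV1 and chr7:116499488-116499737 for CAV2, 5′ to 3′ on the plus strand, the CAV2 stretch ending next to the first listed start and the CAV1 stretch 15 bases before it, with matches to GGGCGG on either strand in capitals.
CAV1: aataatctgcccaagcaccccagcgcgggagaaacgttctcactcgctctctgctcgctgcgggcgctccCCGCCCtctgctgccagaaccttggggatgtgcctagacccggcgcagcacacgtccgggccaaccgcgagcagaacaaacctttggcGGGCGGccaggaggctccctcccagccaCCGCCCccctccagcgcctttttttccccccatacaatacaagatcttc
CAV2: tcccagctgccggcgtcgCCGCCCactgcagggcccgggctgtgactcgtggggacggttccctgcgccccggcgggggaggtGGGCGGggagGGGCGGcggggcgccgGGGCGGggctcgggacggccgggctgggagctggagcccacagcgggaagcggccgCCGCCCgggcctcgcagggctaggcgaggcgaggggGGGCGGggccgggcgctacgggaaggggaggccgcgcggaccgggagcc
The CAV1 stretch holds 3 matches and the CAV2 stretch 6, none overlapping another, and 42.3% of 27305 promoters hold at least 1 within 250 bases. The 250 bases before the PACSIN2 start, not printed, hold 0. The forkhead consensus GTAAACA was found on neither strand of the 4 promoters, against 2.98% of all promoters, and no match in these windows says nothing of the factor elsewhere. The CAV2 and PACSIN2 starts used are inside the annotated genes, which begin further upstream.

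The cavins differed from each other. CAVIN1 (ENSG00000177469, chr17:42402449-42423256, minus strand) encodes cavin-1, the cavin without which caveolae do not form. It had 27276, 22164 and 20613 normalized counts in the libraries labelled FOXD1null, against 23825, 22846 and 23656 in 786-O. The groups overlapped, and the spread was 3486 (SD, n = 3) around 23351 in the libraries labelled FOXD1null and 523 around 23442 in 786-O. The log2 fold change was -0.02 (SE 0.10, 95% interval -0.25 to 0.22, limma adjusted p = 0.92, exact permutation p = 1), an interval of 0.842-fold to 1.16-fold. Without FOXD1null replicate 1 CAVIN1 was lower (log2 fold change -0.13, limma adjusted p = 0.0075), and it had the opposite sign without replicate 2 (0.017, adjusted p = 0.94) or replicate 3 (0.069, adjusted p = 0.64).

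CAVIN3 (ENSG00000170955, chr11:6318946-6320532, minus strand) encodes cavin-3, which is recruited to the coat by cavin-1 and takes part in signalling. It had 2931, 2402 and 2209 normalized counts in the libraries labelled FOXD1null, against 1899, 1808 and 1879 in 786-O. The groups did not overlap, and FOXD1null replicate 1 was the highest. The means were 2514 ± 374 in the libraries labelled FOXD1null and 1862 ± 48.2 in 786-O (SD, n = 3 each), a log2 fold change of 0.42 (SE 0.10, 95% interval 0.19 to 0.66, limma adjusted p = 0.015), or 1.34-fold. The call was lost without 786-O replicate 1 (0.44 on the log2 scale, adjusted p = 0.053), replicate 2 (0.40, adjusted p = 0.061) or replicate 3 (0.43, adjusted p = 0.055), while without FOXD1null replicate 1 it was 0.31 (limma adjusted p = 6.8e-05). In GENCODE release 44 an antisense lncRNA, ENSG00000282556, shares 571 of the 1557 exon bases of CAVIN3 (36.7%), and since the strand setting of the counting was not given in the sources used here, reads of the pair may not be separated.

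Set against each other, the cavins kept an almost constant ratio within each line. CAVIN1 over CAVIN3 was 9.31, 9.23 and 9.33 in the libraries labelled FOXD1null, against 12.5, 12.6 and 12.6 in 786-O, so the ratio was lower in all 3 libraries labelled FOXD1null, by 0.44 on the log2 scale. Both cavins of FOXD1null replicate 1 deviated upwards by the same amount, by 0.35 on the log2 scale over the mean of replicates 2 and 3, which leaves its ratio among those of the other two. In size these deviations exceeded those of 62.1% (CAVIN1) and 61.6% (CAVIN3) of all genes tested. The ratio varied by 0.578% (CV, n = 3) in the libraries labelled FOXD1null and 0.378% in 786-O, less than the 2.02% to 2.52% that counting error alone gives per library. Closeness at that level is finer than these counts can resolve. CAV1 over CAV2 was 1.83, 1.69 and 1.68 in the libraries labelled FOXD1null, against 1.94, 1.77 and 1.88 in 786-O, and the groups overlapped. A ratio within a library does not depend on how libraries are scaled, and no test was made on the ratios, which were described with the values known.

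**Figure D3:**
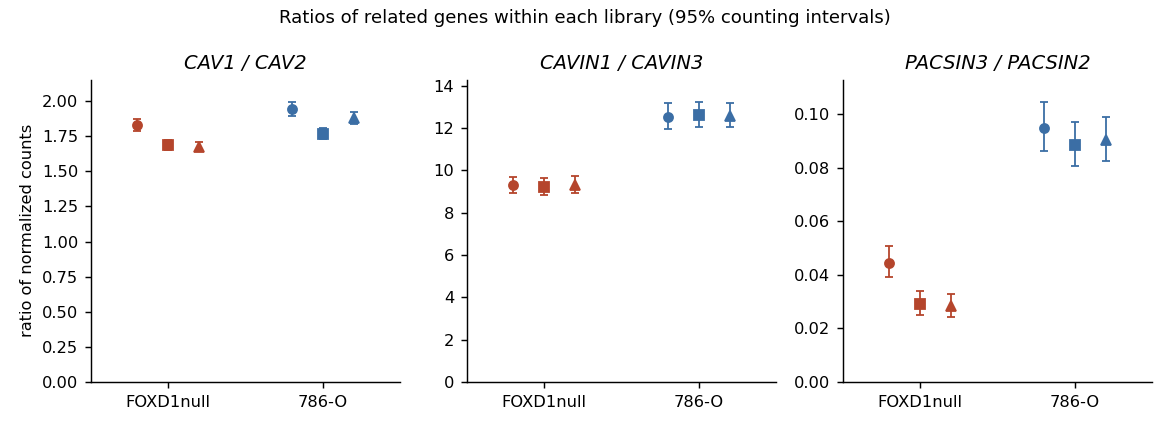
Ratio of normalized counts within each library (vertical axes from 0) for CAV1 over CAV2, CAVIN1 over CAVIN3 and PACSIN3 over PACSIN2, libraries labelled FOXD1null on the left and 786-O on the right. Points are libraries and lines their 95% counting intervals; CAVIN1 over CAVIN3 sits at 9.23 to 9.33 in the libraries labelled FOXD1null and at 12.5 to 12.6 in 786-O.

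EHD2 (ENSG00000024422, chr19:47713422-47743134, plus strand) had the largest rise of the 7 genes. It encodes an ATPase that oligomerizes at the neck of the caveola and slows its detachment from the membrane. It had 4227, 5264 and 4980 normalized counts in the libraries labelled FOXD1null, against 3678, 3011 and 3394 in 786-O. The groups did not overlap, and the lowest of the libraries labelled FOXD1null was replicate 1. The means were 4824 ± 535 in the libraries labelled FOXD1null and 3361 ± 335 in 786-O (SD, n = 3 each), a log2 fold change of 0.52 (SE 0.10, 95% interval 0.28 to 0.76, limma adjusted p = 0.0063), or 1.43-fold, and EHD2 passed under all 15 alternatives run. The stretch before its start, chr19:47713172-47713421, plus strand, GRCh38.p14, is given for comparison with the caveolins, with the 1 match to GGGCGG on either strand in capitals.
EHD2: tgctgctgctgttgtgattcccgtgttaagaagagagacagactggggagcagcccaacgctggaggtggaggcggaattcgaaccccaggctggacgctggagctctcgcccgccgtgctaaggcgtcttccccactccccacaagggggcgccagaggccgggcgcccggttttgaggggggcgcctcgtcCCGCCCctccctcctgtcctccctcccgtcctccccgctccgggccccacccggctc

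The PACSIN genes went apart. PACSIN2 (ENSG00000100266, chr22:42835412-43015149, minus strand) encodes the broadly expressed F-BAR protein that curves the caveolar membrane. It had 5635, 5685 and 5723 normalized counts in the libraries labelled FOXD1null, against 5260, 5043 and 5236 in 786-O. The groups did not overlap, yet the log2 fold change of 0.13 (SE 0.06, 95% interval 0.00 to 0.26) did not pass (limma adjusted p = 0.11, unadjusted p = 0.045). Without FOXD1null replicate 1 it passed (log2 fold change 0.14, limma adjusted p = 0.0054), and at equal library totals it was 0.04 (adjusted p = 0.59). PACSIN2 shares 155 exon bases (3.40%) with ARFGAP3, on the same strand.

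PACSIN3 (ENSG00000165912, chr11:47177522-47186443, minus strand), whose product is best known from muscle, had the largest change of the 7 genes and, with all 6 libraries, the only fall. It had 251, 166 and 161 normalized counts in the libraries labelled FOXD1null, against 499, 446 and 474 in 786-O, which rest on 233, 164 and 166 reads in the libraries labelled FOXD1null and 447, 492 and 515 reads in 786-O. All 3 libraries labelled FOXD1null were far below 786-O, with replicate 1 the highest of them. The means were 193 ± 50.7 in the libraries labelled FOXD1null and 473 ± 26.4 in 786-O (SD, n = 3 each), a log2 fold change of -1.32 (SE 0.17, 95% interval -1.71 to -0.93, limma adjusted p = 7.8e-04), or 0.401-fold. PACSIN3 passed under all 15 alternatives run, at -1.53 to -1.21. PACSIN3 over PACSIN2 was 0.0446, 0.0292 and 0.0282 in the libraries labelled FOXD1null, against 0.0948, 0.0884 and 0.0905 in 786-O, and the groups did not overlap. The sum of both genes was 5874 ± 19.9 normalized counts in the libraries labelled FOXD1null and 5653 ± 143 in 786-O (SD, n = 3 each).

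Per kilobase of merged exons, which allows levels of different genes to be compared, the order was led by cavin-1 and caveolin-1. In the libraries labelled FOXD1null the mean levels were 6541 ± 977 normalized counts per kb for CAVIN1 and 5850 ± 91.4 for CAV1, whose values overlapped. CAV2 at 1989 ± 126 and CAVIN3 at 1615 ± 240 also overlapped, as did EHD2 at 1255 ± 139 and PACSIN2 at 1246 ± 9.64, and PACSIN3 was last at 69.9 ± 18.4 (SD, n = 3). In 786-O the levels per kb were 6566 ± 147 for CAVIN1, 4923 ± 97.4 for CAV1, 1555 ± 58.1 for CAV2, 1196 ± 31.0 for CAVIN3, 1136 ± 26.0 for PACSIN2, 874 ± 87.1 for EHD2 and 172 ± 9.59 for PACSIN3, with no overlap between neighbours in that order. EHD2 thus stood level with PACSIN2 in the libraries labelled FOXD1null and below it in 786-O. Over all libraries the mean level per kb of CAVIN1 exceeded that of 99.2% of the genes with a length, and that of PACSIN3 exceeded 50.7%. Merged exons include those of transcripts the cells may not use, which lowers the level of a gene such as CAV2 with 6578 exon bases.

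Neighbours on the chromosome were compared to see where a gene moved with its surroundings. Of the 10 tested genes whose start lies within 1 Mb of that of CAV1, 4 rose, CAV2 among them, and 0 fell, with a median log2 fold change of 0.31. CAV2 had 10 such neighbours, the same genes but for CAV1 in place of CAV2, of which 4 rose and 0 fell, with a median of 0.26. The counts around CAV1 and CAV2 are thus not separate observations. Leaving out FOXD1null replicate 1, 6 rose and 0 fell around each of them (medians 0.34 for CAV1 and 0.27 for CAV2). Over all genes tested, 33.4% passed with all libraries, 16.3% of them being higher. Without that replicate 55.0% of all genes passed, 27.4% being higher, so calls grew over the whole genome as well. Next to them, TES, encoding a LIM protein of focal adhesions, rose by 0.57 (limma adjusted p = 0.0017) and CAPZA2, an actin capping subunit, by 0.25 (adjusted p = 0.011). MET, the receptor of hepatocyte growth factor, was at 0.09 (limma adjusted p = 0.70). It had 19536, 29407 and 28625 normalized counts in the libraries labelled FOXD1null, against 23781, 23461 and 24695 in 786-O. FOXD1null replicate 1 was thus below, and replicates 2 and 3 above, all 786-O libraries in MET. Over chromosome 7, 232 of 889 genes rose and 124 fell, with a median of 0.09.

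More of the genes around CAVIN1 fell than rose. Of 60 neighbours within 1 Mb 24 fell and 6 rose (median log2 fold change -0.32), and over chromosome 17 441 of 1031 genes fell and 60 rose (median -0.34). The genes on either side of CAVIN1 were STAT3, a transcription factor, at 0.01 (limma adjusted p = 0.93) and ATP6V0A1, a proton pump subunit, at -0.03 (adjusted p = 0.82). When FOXD1null replicate 1 was left out, 32 of the 60 fell and 8 rose (median -0.39). Over all genes tested, 17.1% were lower and 16.3% higher with all libraries, and 27.6% and 27.4% without that replicate. Windows around the other genes had medians nearer 0, at -0.04 for CAVIN3 (1 of 23 rose and 8 fell), -0.01 for EHD2 (8 of 42 rose and 7 fell), -0.01 for PACSIN2 (3 of 31 rose and 7 fell) and -0.14 for PACSIN3 (2 of 34 rose and 9 fell). With that library left out, 4 rose and 8 fell around CAVIN3 (median -0.05), 12 rose and 10 fell around EHD2 (-0.03), 6 rose and 14 fell around PACSIN2 (-0.11) and 6 rose and 14 fell around PACSIN3 (-0.16). CAVIN3 and EHD2 rose, and PACSIN3 fell, by more than the median of their neighbours. These genes had already passed the test, so the comparison cannot show that they moved apart from their surroundings. ARFGAP2, a GTPase activator of Golgi coats whose start is 9.32 kb from that of PACSIN3, fell by 0.32 (limma adjusted p = 0.015). SMPD1, acid sphingomyelinase, the next tested gene above CAVIN3 on the chromosome, fell by 0.27 (adjusted p = 0.040).

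**Figure D4:**
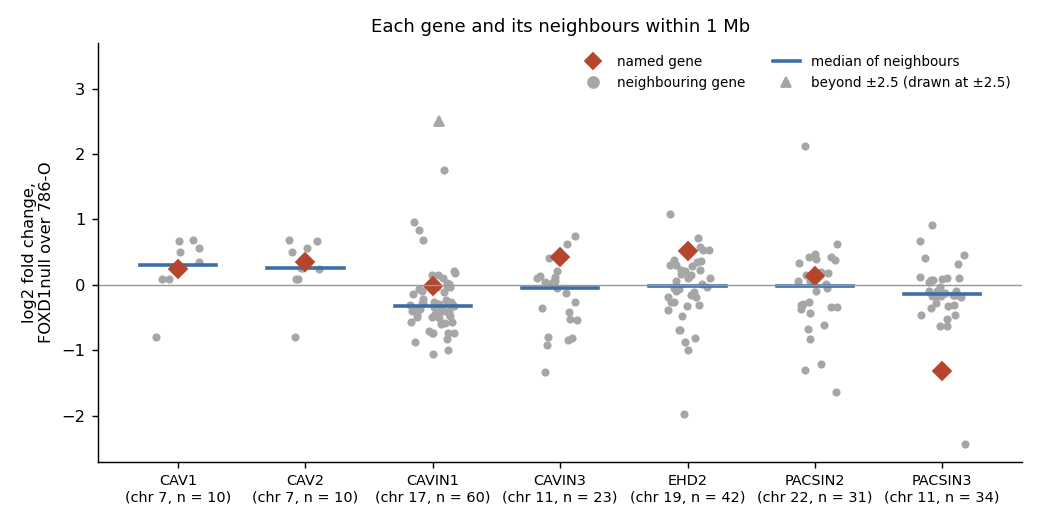
Log2 fold change (libraries labelled FOXD1null over 786-O, vertical axis) for each caveola gene (diamond) and all tested genes with a start within 1 Mb (grey points, with their median as a bar). CAVIN1 at -0.02 lies above a neighbour median of -0.32 and PACSIN3 at -1.32 below one of -0.14.

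Other genes that act at caveolae did not share one direction. Of 14 listed, 11 had values, of which 1 rose, 3 fell and 7 did not pass, where 33.4% of all genes passed. The median log2 fold change of the 11 was 0.05, and CAV3, CAVIN2 and PACSIN1 were not analysed here. FLNA, filamin A, the actin cross-linker that ties caveolin-1 to stress fibres, had 241564, 309759 and 284015 normalized counts in the libraries labelled FOXD1null, against 167833, 160433 and 170023 in 786-O, a log2 fold change of 0.74 (SE 0.10, limma adjusted p = 9.4e-04). The groups did not overlap. FYN, a Src family kinase, fell the most, with 35.6, 17.2 and 11.7 normalized counts in the libraries labelled FOXD1null, against 213, 204 and 193 in 786-O, a log2 fold change of -3.33 (SE 0.34, limma adjusted p = 3.0e-04). EHD3, a relative of EHD2 that acts on endosomes, fell by 1.20 on the log2 scale (limma adjusted p = 0.015) at under 50 normalized counts, and DNM2, the dynamin that cuts vesicle necks, by 0.44 (adjusted p = 0.0047). SRC, which phosphorylates caveolin-1, was at 0.07 (limma adjusted p = 0.47), ROR1, a receptor that binds caveolin-1 and cavin-1, at 0.07 (adjusted p = 0.44), and EHD1 and EHD4, relatives of EHD2, at 0.16 (adjusted p = 0.28) and -0.03 (adjusted p = 0.80). ABL1 and ABL2, kinases that act on actin and caveolae, were at 0.05 (limma adjusted p = 0.75) and 0.03 (adjusted p = 0.83). In both of these kinases FOXD1null replicate 1 was below, and replicates 2 and 3 above, all 786-O libraries. Without FOXD1null replicate 1, 3 of the 11 rose and 3 fell, where 55.0% of all genes passed.

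The clathrin and flotillin routes, which take up membrane without caveolin, also went both ways. All 23 listed genes were measured, of which 7 rose, 6 fell and 10 did not pass, with a median of 0.10, beside the 33.4% of all genes that passed. FCHO1, an early F-BAR factor of clathrin pits, rose by 2.63 on the log2 scale (limma adjusted p = 2.9e-05) and CLTB, a clathrin light chain, by 0.52 (adjusted p = 0.023). EPN2, an epsin adaptor, fell by 1.81 (limma adjusted p = 1.3e-04) and DNM1, a dynamin best known from neurons, by 1.26 (adjusted p = 6.3e-05). Flotillin genes, named here after their values were seen, were both lower, with FLOT1 at -0.47 (limma adjusted p = 0.0021) and FLOT2 at -0.20 (adjusted p = 0.045). Without FOXD1null replicate 1, 11 of the 23 rose and 9 fell (55.0% of all genes passed). Without 786-O replicates 1, 2 or 3, 2 rose and 4, 5 or 4 fell, where 21.4%, 23.8% or 21.5% of all genes passed.

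Cholesterol, on which caveolae depend, enters and leaves cells through genes of which 9 of 10 listed had values. Of these 1 rose, 3 fell and 5 did not pass, with a median of -0.20, again beside 33.4% of all genes. SCARB1, the receptor for high-density lipoprotein, rose by 0.53 on the log2 scale (limma adjusted p = 7.8e-04). ABCA1, the cholesterol exporter, fell by 0.66 (limma adjusted p = 0.0069) and NPC2, a lysosomal cholesterol carrier, by 0.53 (adjusted p = 0.0021). Of the 9 genes 4 rose and 4 fell without FOXD1null replicate 1, beside 55.0% of all genes.

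**Figure D5:**
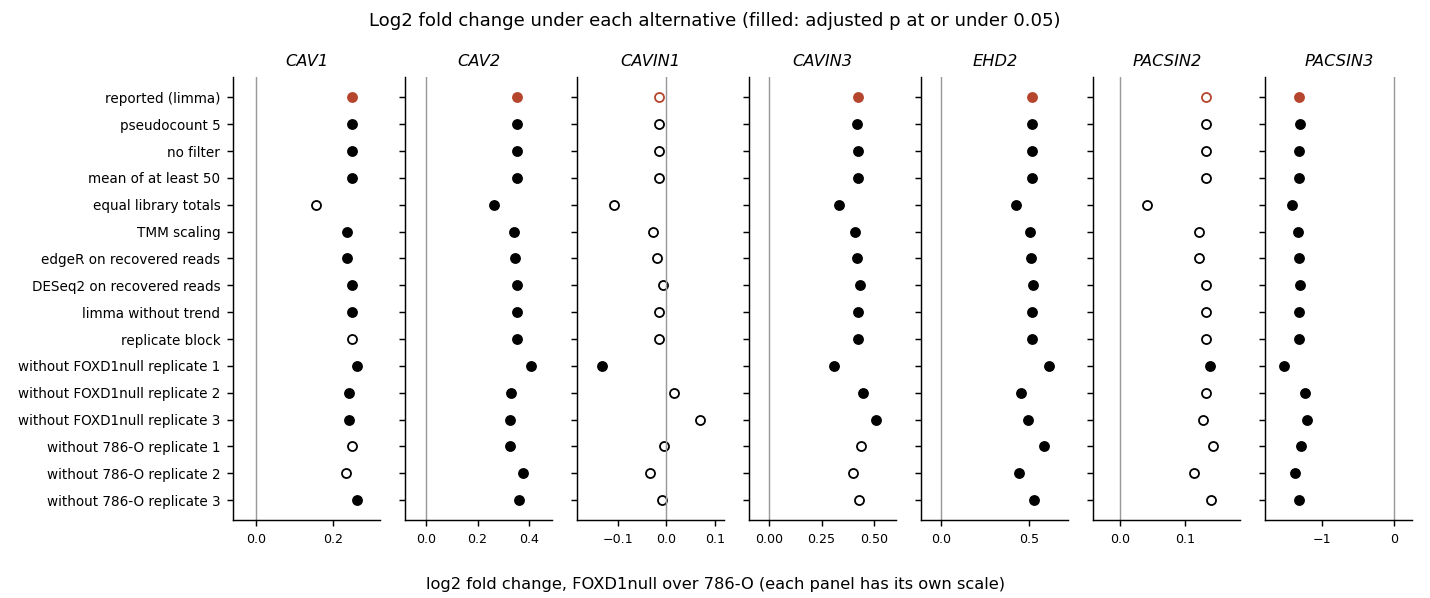
Log2 fold change of the 7 caveola genes (horizontal axis) in the main analysis and under the 15 alternatives (vertical axis), each panel on its own scale, with filled points for an adjusted p of at most 0.05. CAV2, EHD2 and PACSIN3 passed in all of them, and CAVIN1 is the gene whose values lie on both sides of 0, between -0.13 and 0.07.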

How the data were processed

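RNA of 3 libraries per line was sequenced as paired reads. The authors used Trimmomatic 0.36 for trimming and STAR 2.5.2b for alignment to hg38, and counted reads over exons with featureCounts. Their DESeq2 version, annotation release and strand setting were not given in the sources used here. Each deposited signal value of a library is the count of each gene divided by a size factor by the authors with DESeq2. The deposited log2 fold change, p-value and adjusted p-value columns, and other columns of the authors with group means and their difference, hold the authors' own comparison and were not used.

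Each library's values were whole multiples of 1 read within 0.001 of a read, so reads were recovered for edgeR 4.0.16 and DESeq2 1.42.0. Lines were compared in R 4.3.3 by limma 3.58.1, on log2(normalized count + 1) with eBayes and a mean-dependent prior and no covariates, for genes averaging at least 10 across the 6 libraries, adjusted by Benjamini-Hochberg at 0.05. Alternatives were a pseudocount of 5, no filter, a mean of at least 50, equal totals, TMM, edgeR, DESeq2, no trend, a block by replicate number and leaving out each library. Chromosomal windows of 5 Mb and whole chromosomes were added after seeing the data. Positions came from GENCODE release 44 and promoters from RefSeq (GRCh38.p14).

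The members and lists were chosen with earlier results of these data known. Named genes were all 7 members, of each list up to 4 genes past the test with the largest change and list members with a mean of at least 1000 whose role at caveolae is described, the direct neighbours, FOXD1, and for each member past the test the 3 genes averaging at least 100 with the most similar centred log2 profile. Some genes that this rule names are not reported here.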

Additional observations from a re-analysis of the deposited data

How the results depend on the processing

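With 1 change at a time, 15 alternatives were run for each gene. CAV2, EHD2 and PACSIN3 kept their direction and passed in all of them. CAV1 missed the threshold with libraries scaled to equal totals, at 0.16 (limma adjusted p = 0.051). Equal totals shifted the median of all genes to -0.10 and gave 2040 genes higher and 3873 lower, against 2751 and 2888 in the main analysis. Leaving out 1 library each gave ranges of 0.23 to 0.26 for CAV1 (missed without 786-O replicates 1 and 2), 0.31 to 0.51 for CAVIN3 (missed without any 786-O replicate), -0.13 to 0.069 for CAVIN1 and 0.11 to 0.14 for PACSIN2, the last 2 of which passed without FOXD1null replicate 1. CAVIN1 had the opposite sign at 0.017 without FOXD1null replicate 2 and at 0.069 without replicate 3. Of the 7 genes, 3 to 7 passed when 1 library was left out, and 3621 to 9302 of all genes did, the fewest without 786-O replicate 1 (3640 without replicate 3) and the most without FOXD1null replicate 1. The cause of these differences was not tested.

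Replicate numbers recur in both lines, but deviations of same-numbered libraries had correlations of -0.25, -0.23 and 0.01, so the numbers were not taken as pairing. With the replicate number as a block, CAV1 was at 0.25 (limma adjusted p = 0.054) and missed the threshold, no other call among the 7 genes changed, and 4880 genes passed against 5639.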

Other observations

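Genes with the profile most like that of a caveola gene were sought among 11803 genes with a mean of at least 100, by the root mean square difference of centred log2 values over the 6 libraries, as a description. For CAV1 they were PDIA6 (0.0160), a disulfide isomerase of the endoplasmic reticulum, STT3A (0.0161), a subunit of the oligosaccharyltransferase, and PAX8 (0.0196), the kidney transcription factor. For CAV2 they were CPLANE2 (0.0147), RPGR (0.0163) and ASPH (0.0169), a hydroxylase of aspartate. CAV1 and CAV2 were 0.0776 apart, and 808 genes were nearer to CAV1 than CAV2 was.

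For CAVIN3 the nearest genes were CNPPD1 (0.0190), CDC37 (0.0219), a chaperone partner of HSP90, and IDH3G (0.0260), a subunit of mitochondrial isocitrate dehydrogenase. EHD2 was nearest to CLYBL (0.0295), BBC3 (0.0390), which encodes the apoptosis protein PUMA, and SDC3 (0.0476), a syndecan. Of the 7 genes, FOXD1null replicate 1 deviated most from replicates 2 and 3 in PACSIN3 (0.62 on the log2 scale) and least in PACSIN2 (-0.02), where the median size over all genes was 0.27.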
